A study of Mus musculus with 16 samples.

Results

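In hypoplastic left heart syndrome (HLHS) the left ventricle stays small and the left-sided valves and aorta are narrow. It was compared with normal development in mouse ventricular tissue taken as a whole. The counts of the left and the right ventricular library of each embryo were added, so that each embryo gave 1 value per gene. All 16 libraries of the series entered, which made 8 embryos, 3 labelled HLHS and 5 labelled control. All carried a C57BL/6 background per the labels, which name the groups by phenotype and give no genotype for either. The HLHS embryos numbered 1, 2 and 3 were collected at E13.5, E14.5 and E17.5 (embryonic days). Control 1 was the littermate at E13.5, controls 2 and 3 those at E14.5, and controls 4 and 5 those at E17.5. Stage and litter were thus the same variable, every HLHS embryo was the only one of its litter, and litter was a term in the comparison. The question was which genes changed in the whole ventricular tissue, and which of them changed alike on both sides although the malformation is on the left.

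During this window the heart muscle cell of the ventricle normally matures. It adds sarcomeres, ion channels and calcium-handling membranes, enlarges its mitochondria and takes up the enzymes of fatty acid oxidation, while growth genes of the early embryo decline. Endocardium, cushion mesenchyme, epicardium, coronary vessels and blood contribute RNA to the same tissue and exchange signals with the muscle, among them ligands of the TGF-beta, Wnt and Notch families. Sap130, a subunit of the Sin3-HDAC repressor complex, is a gene in which a mutation has been linked to HLHS in mice.

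The summed counts held 35261035 to 53460139 reads per embryo, from libraries of 17081273 to 28648645. The left library supplied 46.9 to 55.4% of an embryo's sum, so that the sum weighs the ventricles by sequencing depth and not by their mass. Xist and the Y-linked Ddx3y gave each embryo a clear sex, except that control 4 had 80.2 CPM of Ddx3y with 17.7 CPM of Xist, which lay almost wholly in its right library (35.2 CPM, against 1.26 CPM in its left). CPM, the count scaled to a common library size, is the normalised read count used throughout. At E13.5 an HLHS embryo with Xist was compared with a control without it. With the Xist level as a covariate 2372 genes passed, and without control 4 2064, against 2401 in the comparison as reported. Heart muscle markers were abundant in every embryo, with Myh7 at 8394 to 12970 CPM. Tnnc1 and Nrap, both of heart muscle, fell below the count filter. The part of the annotation used for counting was not tested, so this is not read as a lack of expression.

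Of 17429 genes tested, 2401 (13.8%) passed an adjusted p of 0.05 in the summed ventricles, 1194 (6.85%) higher and 1207 (6.93%) lower in HLHS. Most changes were small: the median absolute log2 fold change of the genes that passed was 0.38, and 120 rose and 128 fell at least 2-fold. The median standard error was 0.085 on the log2 scale, and control littermates differed by a median of 0.117 at E14.5 and 0.133 at E17.5. The sign was the same in 3 of 3 litters for 2384 of the genes that passed. The count was lower with any 1 embryo of this small design left out, but not equally so. It was 865 without HLHS 2, 1248 without HLHS 1, 1439 without HLHS 3, 1247 without control 1 and 1508 without control 3. Without control 2 it was 2135, without control 4 2064 and without control 5 1713. Each such fit has fewer degrees of freedom, and leaving out an HLHS embryo also removes the contrast within its litter. Leaving out control 1 or HLHS 1 removes the same E13.5 pair, so these cases are not separate checks. Without litter as a term no gene passed by edgeR (1414 had an unadjusted p under 0.05) or limma-voom, and 216 did by DESeq2.

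A gene was classed as alike on both sides on 3 conditions. It passed in the summed ventricles, it differed in the same direction in all 6 litter-by-side differences (HLHS minus the mean of littermate controls), and the 95% interval of its left minus right difference lay within 1.5-fold either way (0.585 on the log2 scale). By this definition 1334 genes were alike, 655 higher (3.76% of the genes tested) and 679 lower (3.90%). The interval condition alone was met by 10431 of the 17429 genes tested and by 1532 of the 2401 that passed. The limit is wider than the median change of the class, given below. A gene changed mainly in the left or mainly in the right ventricle can therefore be classed as alike. At this limit Robo1 lay just inside, its interval reaching 0.584, and Dse just outside at 0.587. Of the genes that passed and were not alike, 515 differed in sign somewhere among the 6, and for a further 552 the interval reached past the limit or was not estimated. The class therefore favours genes measured precisely and changed moderately: its median absolute log2 fold change was 0.31, and 12 of its genes changed at least 2-fold, 4 upward and 8 downward. Tested alone, the left ventricle gave 2043 of 15979 genes (12.8%) and the right 1067 of 16142 (6.61%), with median standard errors of 0.0934 and 0.102. Of the 2401 genes, 556 passed on both sides alone, 986 on the left only, 382 on the right only and 477 on neither. These fits share their libraries with the sum and are no separate evidence. The test of the difference itself, left minus right, passed for 171 of 16508 genes (1.04%), 70 of them among the 2401. Without HLHS 2 488 genes were alike on both sides, without HLHS 1 676, without HLHS 3 724, without control 1 672 and without control 3 778. The left minus right count ranged from 60 without control 4 to 271 without control 2, and the left and right counts alone from 845 to 2309 and from 195 to 1518 with 1 embryo left out. In a model without side by litter terms the left minus right count was 3.

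**Figure D1:**
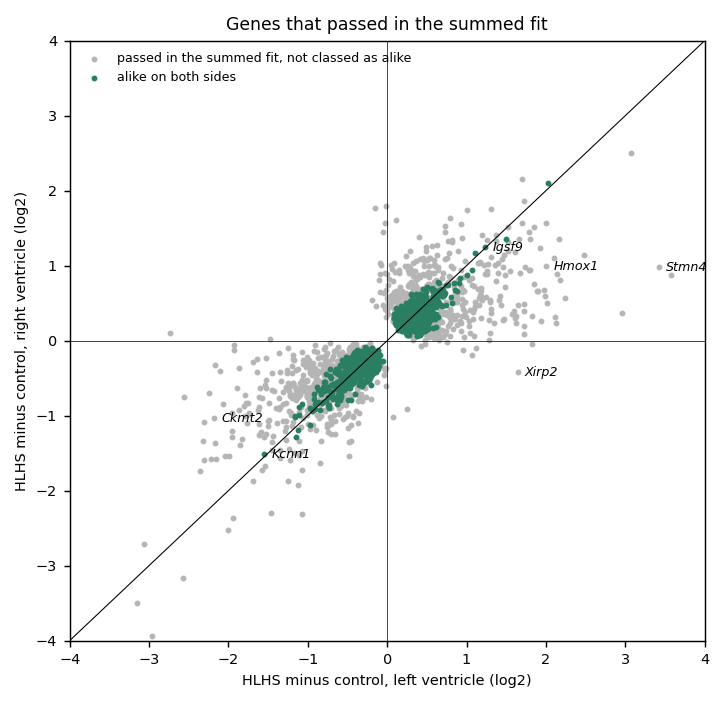
HLHS minus control on the log2 scale in the left ventricle (x axis) and in the right ventricle (y axis) for genes that passed in the summed ventricles, 1 point per gene, with the diagonal marking equal changes. Genes alike on both sides (green) lie along the diagonal by definition, genes such as Stmn4, Hmox1 and Ckmt2 lie away from it, and of the 2401 genes 2345 are drawn, 1 lies beyond the axes and 55 lack a value on one of the sides.

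Sap130 itself was lower in HLHS. It stood at 52.4 CPM in control 1 against 38.0 in HLHS 1, at 37.4 and 35.5 in controls 2 and 3 against 26.7 in HLHS 2, and at 35.3 and 45.2 in controls 4 and 5 against 33.4 in HLHS 3. Each HLHS embryo was below all of its littermates, while the groups overlapped across stages. The log2 fold change was -0.39 ± 0.09 (SE; adjusted p = 0.0187), with -0.35 on the left and -0.42 on the right, and Sap130 was alike on both sides. In the Sin3-HDAC complex, which removes acetyl groups from histones, 7 of 25 genes tested rose and Sap130 fell, all 8 alike on both sides. Sin3a, its scaffold, rose by 0.36 ± 0.05 (78.7 to 97.2 CPM in controls, 102 to 125 in HLHS, with no overlap). Ing2 and Ing1, which bind methylated histones, rose by 0.32 and 0.30, Sinhcaf by 0.31 and Hdac1, a catalytic subunit, by 0.16. The median of the list was 0.04. Sap130 did not pass without control 1 or HLHS 1 or 2, and 3 members rose without HLHS 2 or HLHS 3, 4 without control 1, control 3 or HLHS 1.

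Among the largest falls alike on both sides were Kcnn1, Sez6l2, Mrap, Adhfe1, Itgb1bp2, Plin4, Papln, Myo5c, Cldn5, Ahrr and Acot11, from -1.54 to -0.91 on the log2 scale. These 11 still passed with any 1 embryo left out. Kcnn1, a small-conductance calcium-activated potassium channel, stood at 8.04 CPM in the control and 3.32 in the HLHS embryo of E13.5. At E14.5 its controls had 8.46 and 11.3 CPM against 2.82, and at E17.5 15.3 and 15.7 against 5.53. All 3 HLHS embryos were below all 5 controls, and the fold change was -1.54 ± 0.13 (adjusted p = 0.000538), with -1.55 on the left and -1.52 on the right. Itgb1bp2, or melusin, a muscle protein that binds integrin and takes part in the response to stretch, had the smallest p of these. It stood at 76.2 CPM against 33.8 at E13.5, 93.9 and 98.1 against 43.1 at E14.5, and 187 and 173 against 94.9 at E17.5. The E17.5 HLHS embryo thus stood where the E14.5 controls were, and the fold change was -1.07 ± 0.06 (adjusted p = 6.617e-05). Mrap, an accessory protein of melanocortin receptors, fell by 1.15 ± 0.11, from 18.3 to 32.1 CPM in controls to 8.75 to 14.7 in HLHS, again without overlap.

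Other leading falls were in lipid handling and vessels. Plin4, a coat protein of lipid droplets, fell by 1.05, Adhfe1, a mitochondrial alcohol dehydrogenase, by 1.11, and Acot11, an acyl-CoA thioesterase, by 0.91. Adhfe1 differed widely with stage as well: its controls had 12.2 CPM at E13.5, 20.04 and 22.9 at E14.5 and 70.5 and 65.7 at E17.5, and its HLHS embryos 4.39, 7.52 and 44.6. Cldn5, the claudin of endothelial tight junctions, fell by 0.97 ± 0.08, with 26.0 to 49.8 CPM in controls against 12.9, 18.4 and 26.0 in HLHS, and HLHS 3 lay level with the lowest control, an embryo of E13.5. Ahrr, a repressor of the aryl hydrocarbon receptor, fell by 0.96, Myo5c, a myosin of vesicle transport, by 1.02, Papln, a matrix protein, by 1.04, and Sez6l2, a membrane protein best known from neurons, by 1.22.

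The largest rises alike on both sides were Xlr, Igsf9, Pappa, Hmga2, Robo1, Nipal4, Gm2a, Crispld2, Tgfb2, Hs6st2, Etv4 and Stk36, from 1.42 to 0.74. With 1 embryo left out all still passed, except Hs6st2 (without HLHS 2), Nipal4 (without HLHS 2 or HLHS 3) and Stk36 (without HLHS 3). Hmga2, a chromatin protein of early growth that is normally shut down toward birth, stood at 34.2 CPM in control 1 and 76.0 in HLHS 1. At E14.5 it had 29.0 and 29.8 CPM against 64.4, and at E17.5 10.9 and 11.0 against 17.8. Each HLHS embryo was above its littermates, the level declined with stage in both groups, and the fold change was 1.00 ± 0.08 (adjusted p = 0.000494), with 1.07 on the left and 0.95 on the right. Igsf9, a neural cell adhesion molecule, rose by 1.23 ± 0.13, with 11.6 CPM against 22.8 at E13.5, 7.30 and 6.78 against 14.8 at E14.5, and 2.04 and 2.56 against 7.10 at E17.5. Pappa, the protease that frees insulin-like growth factors from their binding proteins, rose by 1.13 ± 0.12, from 2.39 to 4.45 CPM in controls to 5.98 to 8.80, without overlap. Robo1, the receptor of Slit ligands, rose by 0.91 and Etv4, a transcription factor downstream of growth factor signals, by 0.74. Xlr, at 1.08 to 3.91 CPM in controls and 3.87 to 8.24 in HLHS, rose by 1.42, but it belongs to a family of near-identical X-linked copies, so its value is uncertain.

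**Figure D2:**
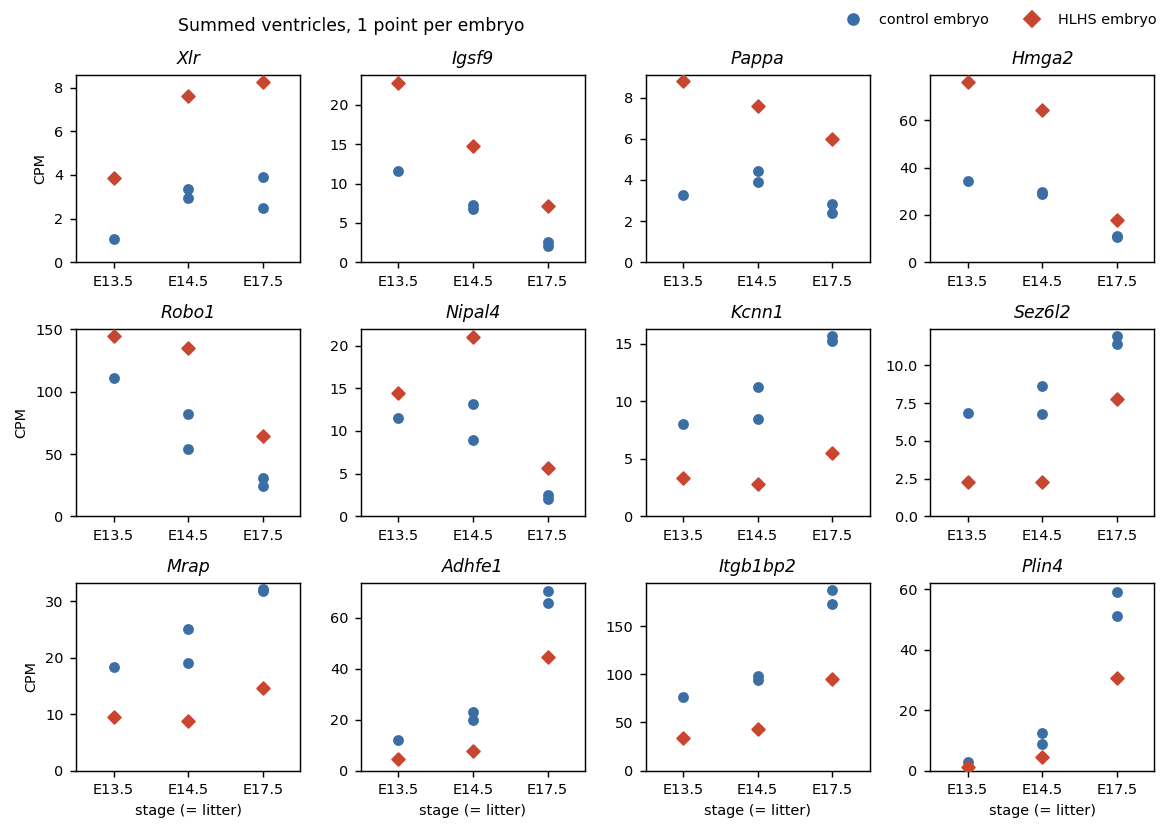
Normalised read counts (CPM, y axis, starting at 0) of the 6 largest rises and the 6 largest falls alike on both sides in the summed ventricles, by stage (x axis), 1 point per embryo (circles control, diamonds HLHS). In all 12 genes the HLHS embryo of each litter lies outside its littermates, on the same side at the 3 stages, while levels such as those of Hmga2 and Adhfe1 also differ with stage.

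**Figure D3:**
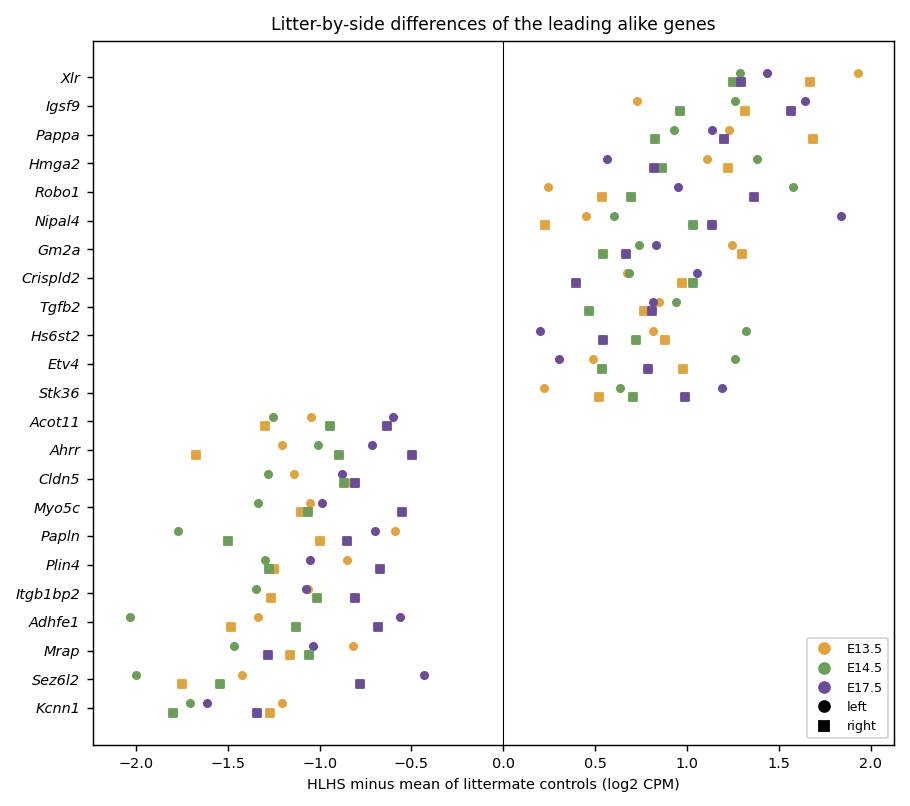
HLHS minus the mean of littermate controls (x axis, log2 CPM) for 23 leading genes alike on both sides (y axis), with colours for the 3 litters, circles for the left and squares for the right ventricle. All 6 points of a gene lie on the same side of 0, which the definition of the class required.

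Many genes of oxidative metabolism passed lower in the summed ventricles. In fatty acid uptake and oxidation 16 of 32 genes tested fell and none rose, 14 of them alike on both sides, with a median of -0.30 over the list against 0.001 over all genes tested. Acsl1, which activates long-chain fatty acids, stood at 149 CPM against 78.4 at E13.5, 190 and 210 against 100.2 at E14.5, and 409 and 380 against 276 at E17.5. Each HLHS embryo was below its littermates, and the fold change was -0.80 ± 0.09 (adjusted p = 0.00134). Acadvl and Acaa2, which catalyse the opening and the closing step of beta-oxidation, fell by 0.52 and 0.50, and the fatty acid importer Cd36 fell by 0.51. Without control 1, HLHS 1 or HLHS 2 10 members passed.

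The citric acid cycle and pyruvate oxidation list had the highest share, with 19 of 28 genes lower, none higher, 16 alike on both sides, and a median of -0.26. Got1, the cytosolic aspartate aminotransferase of the malate-aspartate shuttle, fell by 0.40 ± 0.06, Mpc2, a subunit of the mitochondrial pyruvate carrier, by 0.44, and Sdha, the catalytic subunit of complex II, by 0.32 ± 0.06 (804 to 1352 CPM in controls, 681 to 1018 in HLHS). Of 74 nuclear genes of the respiratory chain and ATP synthase, 28 fell and none rose, 27 alike, and all 74 had a negative log2 fold change, from -0.74 to -0.05. The 3 with the largest falls were Cox8b (-0.74), Cox7a1 (-0.60) and Cox6a2 (-0.52), all muscle isoforms of cytochrome oxidase. Cox7a1 stood at 68.0 CPM against 41.3 at E13.5, 62.1 and 74.7 against 47.6 at E14.5, and 120 and 97.8 against 72.6 at E17.5. None of 12 genes encoded in mitochondrial DNA passed, their values running from -0.14 to 0.03. Among mitochondrial ribosomal proteins 8 of 74 fell, a share near that of all genes, with a median of -0.15. These counts rested on few embryos: without HLHS 3 2 members of the citric acid cycle list and 4 of the respiratory chain list passed, and without HLHS 2 3 and 6. Without control 3 the citric acid list gave 8 and the respiratory list 8, and without control 1 or HLHS 1 the respiratory list gave 6. The mitochondrial ribosomal list ran from 0 (without control 3, HLHS 2 or HLHS 3) and 2 (without control 1 or HLHS 1) to 13 without control 2.

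Of 20 regulators of these pathways 8 fell, 5 alike, and none rose. Perm1, a muscle factor that acts with PGC-1 and estrogen-related receptors, fell by 1.09 ± 0.07, from 44.0 to 134 CPM in controls to 20.5, 25.2 and 55.8, but by more on the left (-1.35) than on the right (-0.88; adjusted p of the difference 0.018). Ppara, the fatty acid receptor that drives oxidation genes, fell by 0.78 ± 0.11 and did not meet the limit for alike. Klf15 fell by 0.51, Ppargc1a, which encodes PGC-1alpha, by 0.30, Ppargc1b by 0.28, Esrra, the estrogen-related receptor alpha, by 0.27 and Rxra by 0.24, each alike on both sides. Without HLHS 2 2 of the regulators passed, without HLHS 1 3, without control 1 4 and without HLHS 3 5. Sums of marker CPM bear on the cells sampled: the thick filament list held 23900 to 35500 CPM in controls and 22600 to 29800 in HLHS. In bulk tissue, fewer cells of a type and less RNA per cell cannot be told apart.

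Estrogen-related receptors bind the core AAGGTCA. Some named genes were left out of the listing of promoters that hold it, so the listing may not be complete. The promoters below are those of the other named genes alike on both sides in which the core occurs. They run from 250 bases before to 50 bases after the start (RefSeq, build GRCm38.p6), and capitals mark AAGGTCA.
Cav3 (chr6:112459255-112459554, plus strand): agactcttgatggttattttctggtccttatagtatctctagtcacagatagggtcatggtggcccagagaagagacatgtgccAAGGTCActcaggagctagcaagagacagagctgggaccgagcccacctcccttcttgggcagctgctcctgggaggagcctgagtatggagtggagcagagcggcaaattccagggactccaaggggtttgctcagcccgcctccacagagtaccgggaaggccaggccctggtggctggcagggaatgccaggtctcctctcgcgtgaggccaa
Got1 (chr19:43524556-43524855, minus strand): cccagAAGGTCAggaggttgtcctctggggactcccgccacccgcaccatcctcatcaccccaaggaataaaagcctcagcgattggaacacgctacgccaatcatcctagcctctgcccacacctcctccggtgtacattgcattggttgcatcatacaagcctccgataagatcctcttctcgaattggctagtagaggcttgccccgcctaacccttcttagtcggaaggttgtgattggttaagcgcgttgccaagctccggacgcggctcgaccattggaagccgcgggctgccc
Ndufb2 (chr6:39592315-39592614, plus strand): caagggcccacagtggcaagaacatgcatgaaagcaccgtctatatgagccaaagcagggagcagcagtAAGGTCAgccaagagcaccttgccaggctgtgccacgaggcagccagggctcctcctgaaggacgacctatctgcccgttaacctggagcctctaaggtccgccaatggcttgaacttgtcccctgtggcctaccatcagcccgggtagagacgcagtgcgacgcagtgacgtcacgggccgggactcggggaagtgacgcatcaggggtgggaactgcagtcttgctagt
The core lies 166 bases before the start in Cav3, 245 in Got1 and 181 in Ndufb2. Either strand was searched for 3 motifs, none of which contains another. Beside the receptor core these were ACGTG, bound by hypoxia-inducible factors. The other was GGAATG, bound by TEAD factors. AAGGTCA occurred in 27 of 524 promoters of genes alike and lower (5.15%), in 6 of 501 of genes alike and higher (1.20%), in 3.34% of 12148 promoters of tested genes and in 4.66% of all 27025 promoters. ACGTG occurred in 22.5% of the promoters of genes alike and lower, in 25.9% of those alike and higher and in 24.5% of those of tested genes, and GGAATG in 13.4%, 10.4% and 12.5%. Over all promoters the shares were 19.7% and 14.6%. A match describes the letters in this window and shows no binding.

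Some genes of phosphotransfer and glycogen metabolism passed lower as well. Of 12 genes for creatine and adenylate metabolism 6 fell, 3 alike. Ckm, the creatine kinase of muscle cytosol, fell by 0.69 ± 0.11 and was alike, from 430 CPM against 208 at E13.5, 519 and 585 against 341 at E14.5, to 1051 and 930 against 742 at E17.5. Its mitochondrial counterpart Ckmt2 fell further, by 1.59 ± 0.13, but unequally, with -2.18 on the left and -1.04 on the right (adjusted p of the difference 0.0122). In glycolysis and glycogen metabolism 9 of 31 fell, 7 alike, and Pfkp rose, while the list median was -0.07, with 17 values negative and 14 positive. The falls included muscle isoforms: Pygm, glycogen phosphorylase (-0.42 ± 0.05), Eno3, enolase (-0.50 ± 0.08), Pfkm, phosphofructokinase (-0.32), and Slc2a4, the insulin-responsive glucose transporter (-0.33). In the breakdown of branched-chain amino acids and ketones 7 of 21 fell, among them Pccb, Ivd and Mccc1 with -0.29 to -0.27. The creatine list gave 3 without HLHS 2 or HLHS 3, the glycolysis list 4 falls and 4 rises without HLHS 3, 2 rises without HLHS 1 and no rise without control 3 or HLHS 2, and the amino acid list 3 without control 1, HLHS 1 or HLHS 2 and 4 without control 3 or HLHS 3.

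**Figure D4:**
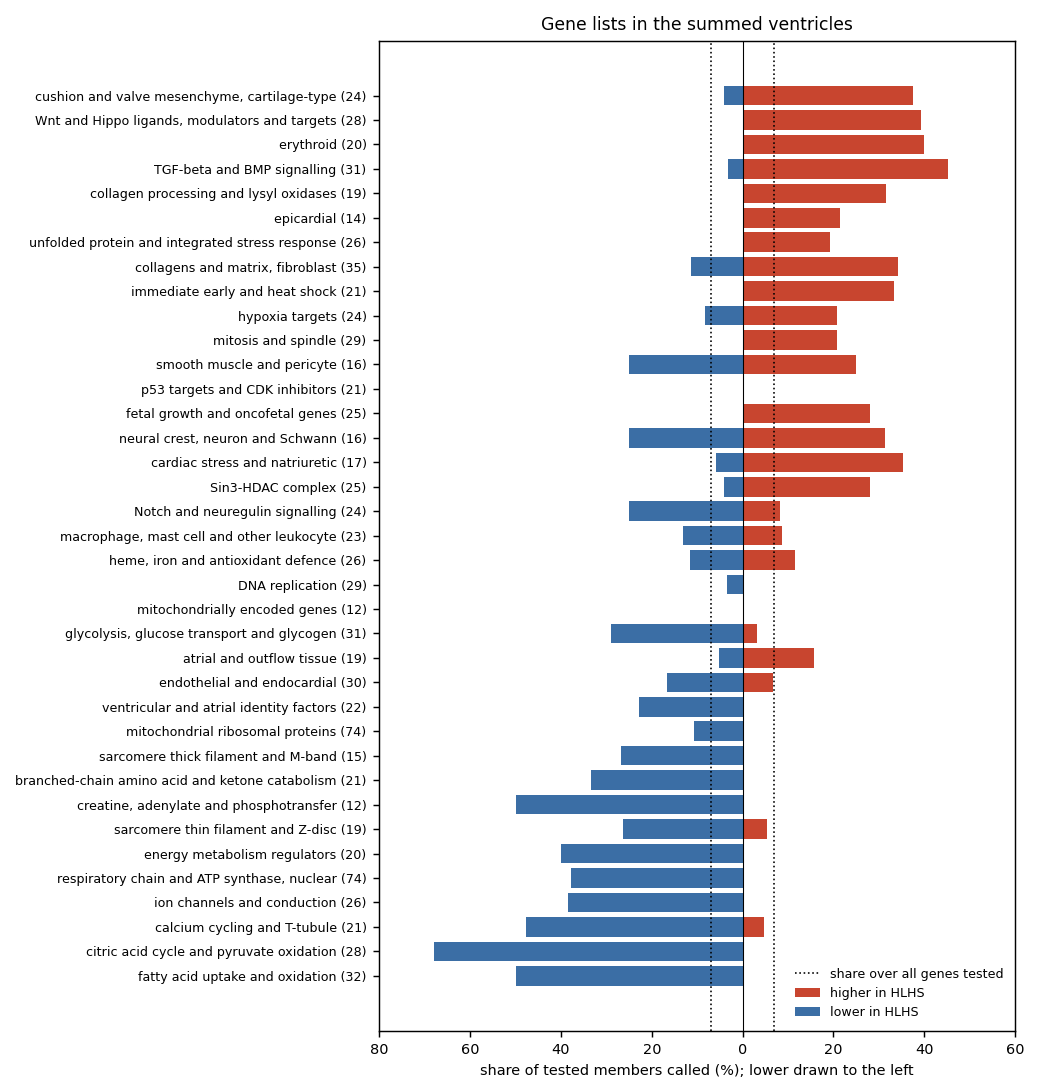
Share of the tested members of each gene list that passed in the summed ventricles, higher in HLHS drawn to the right and lower to the left (x axis, percent), lists ordered by median log2 fold change (y axis, number tested in brackets). Dotted lines give the shares over all genes tested, 6.85% higher and 6.93% lower, and the citric acid cycle list reaches farthest on the lower side with 19 of 28.

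Of 21 genes of calcium cycling and T-tubules 10 fell, 6 alike, and Casq1 rose. No member rose without control 2, control 3, control 4, control 5 or HLHS 2. Atp2a2, the calcium pump of the sarcoplasmic reticulum, fell by 0.36, its inhibitor Pln by 0.34, the calcium-binding Casq2 by 0.32 and Trdn, which couples it to the release channel, by 0.39. Cav3, the caveolin of muscle, fell by 0.42 ± 0.06, from 98.3 CPM against 67.1 at E13.5, 129 and 140 against 108 at E14.5, and 186 and 162 against 129 at E17.5. Dhrs7c, a reductase of the sarcoplasmic reticulum, fell most, by 1.77 ± 0.10, with 15.1 CPM against 3.61, 27.1 and 29.3 against 7.81, and 114 and 103 against 37.0 at the 3 stages. All 6 of its litter-by-side differences were negative, but with -2.05 on the left and -1.54 on the right its interval exceeded the limit for alike.

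Of 26 ion channel genes 10 fell and none rose, 6 alike. Besides Kcnn1 these included Kcnj2, the inward rectifier that sets the resting potential (-0.53 ± 0.07), Kcnq1 and Kcnh2, channels of repolarization (-0.44 and -0.27), and Kcnj8 with its partner Abcc9, which form a potassium channel gated by ATP (-0.72 and -0.25). Kcnd2 and Kcnip2, subunits of the transient outward current, fell by 1.00 and 1.22 but more on the left (-1.28 and -1.63) than on the right (-0.63 and -0.93). The unadjusted p of these differences were 0.00113 and 0.018, and they did not pass adjustment. Kcnd2 was nearly flat in controls, at 8.44 to 10.2 CPM, against 4.01 to 4.99 in HLHS, without overlap. Without HLHS 2 6 ion channel genes passed.

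In the thick filament and M-band list of the sarcomere 4 of 15 fell, and in the thin filament and Z-disc list 5 of 19 fell and Xirp2 rose. Tnni3, the troponin I of the mature heart, fell by 0.50 ± 0.07 alike on both sides (-0.52 and -0.47), from 844 CPM against 575 at E13.5, 725 and 776 against 534 at E14.5, and 1266 and 1063 against 836 at E17.5. Cmya5, a partner of titin and other sarcomere proteins, fell by 0.40 and Ldb3, of the Z-disc, by 0.28. The myosin heavy chains did not pass: Myh7, the slow chain, had -0.10 ± 0.06 and Myh6, the fast chain, -0.59 ± 0.18 (adjusted p = 0.0536), with -0.99 on the left and -0.35 on the right. At E17.5 Myh6 stood at 7764 and 6444 CPM in controls and 3000 in HLHS, against 2446 and 2129 with 1981 at E14.5 and 3679 with 2915 at E13.5. Without HLHS 2 2 members of each of the 2 lists fell. The thick filament list also gave 2 without control 1 or HLHS 1, and the thin filament list 3 without control 3 or HLHS 3.

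Of 22 factors of chamber identity 5 fell and none rose. Irx4, a ventricular repressor of atrial genes, fell by 0.26, Hey2, a Notch target of compact myocardium, by 0.30, Hopx by 0.24 and Gata6 by 0.18, each alike on both sides by the definition used here. Irx4 nevertheless had -0.12 on the left, where it did not pass alone, and -0.38 on the right. The left minus right test gave it an unadjusted p of 0.00773 and an adjusted p of 0.189. Hand1 and Hand2, factors of left and right ventricle formation, had -0.25 ± 0.10 and -0.11 ± 0.06 and did not pass. Nppa, atrial natriuretic peptide, which the embryonic ventricle also makes, rose by 0.52 ± 0.09, with 173 CPM against 203 at E13.5, 82.4 and 96.6 against 148 at E14.5, and 67.9 and 75.6 against 104 at E17.5. It was alike, with 0.57 on the left and 0.48 on the right, while Nppb had 0.25 ± 0.20 and did not pass. The identity list gave 2 without HLHS 2 or HLHS 3 and 3 without control 1 or HLHS 1, and Gata6 passed only with control 4 left out or with all 8 embryos. In the list for atrial and outflow tissue 3 of 19 rose, Nppa, Dkk3 and Clu, and Rnf207 fell, of which Dkk3 did not pass without control 1, control 4 or any HLHS embryo and Rnf207 not without control 1, HLHS 1 or HLHS 2. Its summed level was 3650 to 9000 CPM in controls and 4050 to 5250 in HLHS.

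Among growth genes 7 of 25 rose and none fell, 6 alike. Beside Hmga2 these were Igf1, an insulin-like growth factor (0.45 ± 0.06), Ptn, a heparin-binding growth factor (0.36 ± 0.06), Igf2bp2 and Igf2bp3, which bind growth factor mRNA (0.27 and 0.30), the imprinted Peg3 (0.28), and Mdk (0.20, not alike). Of 29 genes of mitosis 6 rose, all 6 alike, and 28 had a positive value. Plk1, a mitotic kinase, rose by 0.26 ± 0.06, Cenpe, a kinetochore motor, by 0.27 and Kif20a, a kinesin of cytokinesis, by 0.25. The proliferation marker Mki67 had 0.07 ± 0.07 and did not pass, and of 29 genes of DNA replication E2f1, a factor of S phase entry, fell by 0.33 and no other passed. None of 21 p53 targets and CDK inhibitors passed, Cdkn1a having -0.17 ± 0.07. The mitosis count was fragile: it was 0 without HLHS 3, 1 without control 1 or HLHS 1, 2 without control 5 and 3 without control 3 or HLHS 2. E2f1 did not pass without HLHS 2 or HLHS 3. The growth list gave 4 without control 1, control 3 or HLHS 1.

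In TGF-beta and BMP signalling 14 of 31 genes rose and Tgfbr3, a co-receptor, fell, with 7 rises alike and a list median of 0.25. Tgfb2, a ligand of cushion and outflow development, stood at 69.5 CPM against 122 at E13.5, 77.03 and 69.9 against 117 at E14.5, and 58.9 and 55.7 against 101 at E17.5. All 3 HLHS embryos were above all 5 controls, and the fold change was 0.76 ± 0.05 (adjusted p = 0.000179), with 0.88 on the left and 0.67 on the right. Tgfb3 rose by 0.61 ± 0.06, from 30.6 to 37.3 CPM in controls to 48.3 to 53.4, without overlap, and by the same amount on either side (0.62 and 0.63). Ltbp1, which stores these ligands in the matrix, rose by 0.57, the receptor Tgfbr1 by 0.30, and the targets Skil, Id2 and Smad6 by 0.40, 0.38 and 0.25. Without HLHS 2 9 members rose. No member fell without control 2, control 3, control 5 or HLHS 2, and 2 fell without control 1, HLHS 1 or HLHS 3.

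In the Wnt and Hippo list 11 of 28 rose and none fell, 6 alike, with a median of 0.32. Wnt11, a ligand of outflow tract development, rose by 0.60 ± 0.09, from 15.6 CPM against 25.6 at E13.5, 14.2 and 13.3 against 23.1 at E14.5, and 7.52 and 7.12 against 9.24 at E17.5. Wnt5a rose by 0.46, the secreted inhibitors Sfrp1 and Dkk3 by 0.40 and 0.65, and the stretch-responsive Ankrd1 by 0.41, all alike. Sost, the inhibitor sclerostin, which is also among the cushion markers, rose most of the named members, by 1.66 ± 0.13, from 2.81 to 5.24 CPM to 9.97 to 11.9, without overlap. Its left minus right interval, -0.49 to 1.07, was too wide for alike. Without control 1, HLHS 1 or HLHS 3 5 members rose, and without HLHS 2 6.

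Of 24 genes of Notch and neuregulin signalling 6 fell, 5 alike, and Nrg1 and Fgfr1 rose, with a list median of 0.02. The rises numbered 1 without control 1, control 3 or any HLHS embryo and 4 without control 2. Dll4, the ligand of arterial endothelium and endocardium, fell by 0.59 ± 0.08, with 43.6 CPM against 29.7 at E13.5, 32.1 and 33.2 against 19.8 at E14.5, and 36.0 and 30.3 against 23.7 at E17.5. Nrarp, a feedback target of Notch, fell by 0.56 ± 0.07, from 50.2 to 59.2 CPM in controls to 31.2, 33.5 and 44.6, without overlap. Notch4 fell by 0.36 and Hey2 as given above, while Nrg1 itself, the endocardial ligand of trabeculation, rose by 1.22 ± 0.18 from low levels and was not alike. In the list for endothelium and endocardium 5 of 30 genes fell, Cldn5, Rgcc, Fabp4, Esam and Kdr (-0.97 to -0.23). Cdh11 and Nfatc1 rose (0.39 and 0.34), a share near the 6.85% over all genes. For Cdh11 the values were 0.12 on the left, where it did not pass alone, and 0.56 on the right. The summed level of that list was 3140 to 3520 CPM in controls and 2920 to 3520 in HLHS, and its part in the Notch values was not tested. The number of endothelial falls was 2 without control 1, HLHS 1 or HLHS 2 and 10 without HLHS 3, and that of the rises 1 without control 3 or HLHS 3.

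Of 35 collagens and matrix genes 12 rose and 4 fell, 4 of the rises alike, with list medians of -0.06 on the left and 0.40 on the right. The falls were Clec3b, or tetranectin (-2.11 ± 0.29), the largest change in the list, Scara5 (-0.76), Mfap5 (-0.60) and Col15a1 (-0.19). Thbs1, thrombospondin 1, stood at 64.2 CPM against 202 at E13.5, 88.5 and 57.2 against 145 at E14.5, and 56.6 and 63.2 against 147 at E17.5. The groups did not overlap and the rise was 1.29 ± 0.14, with 1.26 on the left and 1.34 on the right, though the interval of the difference (-0.69 to 0.45) exceeded the limit. Bgn, the proteoglycan biglycan, rose by 0.71 ± 0.08 and Fn1, fibronectin, by 0.49, both alike. Of 19 genes that process collagen 6 rose, 4 alike: Plod2 (0.55 ± 0.06) and Plod3 (0.34), which hydroxylate lysine, and the chaperones P4hb (0.31) and Fkbp10 (0.30). Loxl2, a lysyl oxidase, rose by 0.60 with 0.80 on the left and 0.43 on the right. Of 24 markers of cushion mesenchyme 9 rose and Cytl1 fell, none alike, with list medians of 0.10 on the left and 0.67 on the right. Their summed level was 479 to 824 CPM in controls and 755 to 1210 in HLHS, and its part in the matrix and TGF-beta values was not tested. Without HLHS 2 2 cushion markers and 3 collagen-processing genes rose, and without control 1 or HLHS 1 7 matrix genes did. Without HLHS 3 8 matrix genes rose and 2 fell, without control 2 18 rose, and without HLHS 2 no cushion marker fell.

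The lists of stress genes were short, and over all genes tested 6.85% were higher and 6.93% lower in HLHS. Of 26 genes of the unfolded protein response 5 rose, among them the endoplasmic reticulum chaperones Pdia4 (0.37 ± 0.07), Dnajb9 (0.35) and Pdia3 (0.28), all alike. Pdia4 stood at 142 CPM against 188 at E13.5, 129 and 130 against 189 at E14.5, and 118 and 126 against 135 at E17.5, so the E17.5 pair differed least. The medians of the list were 0.34, 0.29 and -0.06 at the 3 stages, and 13 members rose without HLHS 3, 3 without control 3 and 1 without HLHS 2. Among immediate early and heat shock genes 7 of 21 rose, of which Junb (0.39) and Hsp90aa1 (0.25) were alike, with 1 left without control 1, HLHS 1 or HLHS 2 and 3 without control 3 or control 5. Of 24 hypoxia targets 5 rose and 2 fell. Plod2 and Bnip3l, a mitophagy receptor (0.34), rose alike, Adm fell by 0.44 alike, and Vegfa fell by 0.20. Bnip3 rose by 0.93 on the left and 0.24 on the right (adjusted p of the difference 0.012). Without HLHS 3 8 hypoxia targets rose. The falls did not both hold with any 1 embryo left out: 1 hypoxia target fell without control 3, HLHS 2 or HLHS 3 and none in the other 5 cases.

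The left minus right difference passed adjustment for 13 of the named genes, which all but Myh6 had also passed in the sum. Among them Cnn1, Bnip3, Ckmt2, Prrx2 and Tppp were taken by the naming rule for genes differing between sides, Prrx2 and Tppp by that rule alone. The number 13 was therefore partly fixed by the choice of genes. Hmox1, heme oxygenase, had the smallest p of all genes in the sum, with 20.5 CPM against 52.0 at E13.5, 20.4 and 21.5 against 68.1 at E14.5, and 15.2 and 14.0 against 44.8 at E17.5. The groups did not overlap, and the rise of 1.58 ± 0.07 (adjusted p = 2.771e-05) divided into 2.00 on the left and 0.99 on the right (adjusted p of the difference 0.0278). Stmn4, a microtubule regulator known from neurons, rose by 2.41 ± 0.27 in the sum, by 3.42 on the left and 0.98 on the right. Xirp2, a protein of intercalated discs, had opposite signs, 1.64 on the left and -0.42 on the right, which gave 0.71 ± 0.12 in the sum. Among the 2401 genes 33 had opposite signs on the sides. Tppp, a tubulin-binding protein, fell by 1.19 on the left and 0.19 on the right, and Prrx2, a mesenchymal homeobox gene, rose by 1.44 and 0.47.

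**Figure D5:**
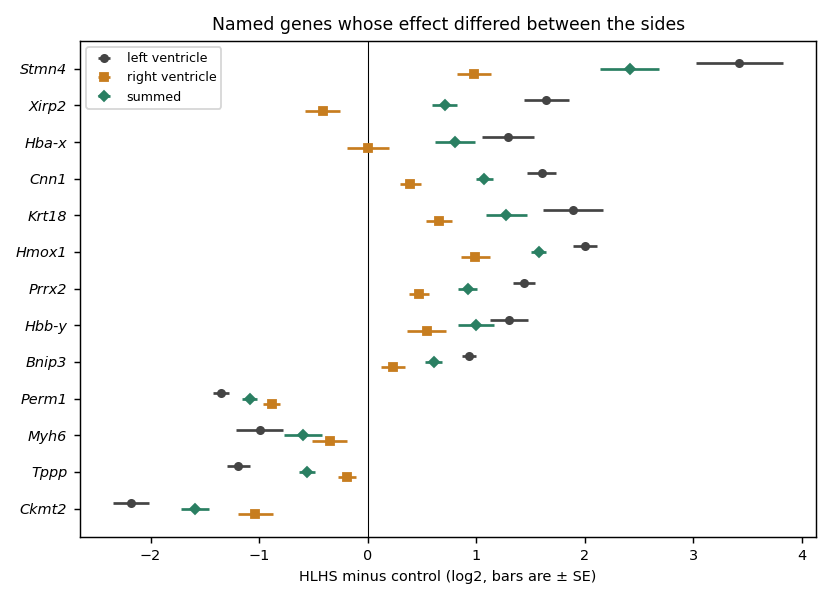
HLHS minus control on the log2 scale (x axis; bars are standard errors) in the left ventricle (circles), the right ventricle (squares) and the summed ventricles (diamonds) for 13 named genes (y axis) whose left minus right difference passed adjustment. The summed value lies between the sides, and Xirp2 is the gene with opposite signs. Cnn1, Bnip3, Ckmt2, Prrx2 and Tppp were taken by the naming rule for genes differing between sides, so the number of genes drawn partly follows from that choice.

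Of 20 erythroid genes 8 rose, all globins or Alas2 of heme synthesis, none alike, with medians of 0.61 on the left and -0.05 on the right. The summed erythroid level was 665 to 872 CPM in controls and 765 to 1140 in HLHS, none of the 8 rose without HLHS 2, 2 rose without HLHS 3 and 4 without control 3. With the globin genes left out of the fit 2388 genes passed. The embryonic globin Hbb-y declined with stage, from 96.4 CPM against 161 at E13.5 and 35.9 and 25.4 against 66.7 at E14.5 to 0.348 and 0.873 against 1.46 at E17.5. The part of blood in the rise of Hmox1, which macrophages and other cells that clear heme also express, was not tested. The mast cell proteases Cma1, Tpsb2 and Cpa3 fell, and each still passed with any 1 embryo left out. Cma1, chymase, had 0.426 CPM against 0.190 at E13.5, 3.70 and 2.64 against 0.529 at E14.5, and 9.85 and 7.19 against 0.846 at E17.5, a fall of 2.82 ± 0.31. Cpa3 fell by 1.52 ± 0.21 and Tpsb2 fell by 3.39 ± 0.42, both from a few CPM, and Tpsb2 had no read in control 1 and HLHS 1. The leukocyte list had 2 rises and 3 falls among 23 genes tested, the rises near the share of 6.85% over all genes. The rises were the macrophage genes F13a1 and Mrc1, by 0.76 and 0.34. The list median was -0.01, with -0.22 on the left and 0.22 on the right, and 12 values were negative. When any embryo but control 4 or HLHS 3 was left out, 1 leukocyte gene was higher. The leukocyte list as a whole summed to 208 to 273 CPM in controls and 180 to 265 in HLHS.

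Smooth muscle genes were split, 4 of 16 higher and 4 lower. Tagln and Cnn1, which embryonic heart muscle shares with smooth muscle, rose by 1.38 and 1.07 and more on the left (1.98 and 1.60) than on the right (0.67 and 0.39); the difference passed adjustment for Cnn1 (adjusted p = 0.00837) and not for Tagln (0.229). Myh11, the myosin of smooth muscle, fell by 0.80, Smtn, of its contractile apparatus, by 0.34, and the pericyte genes Rgs5 and Kcnj8 by 0.54 and 0.72. Of 14 epicardial genes Krt18, Krt19 and Sema3d rose, none alike. Among 16 genes of neural crest and neurons 5 rose, among them Stmn4 (given above), Snap25 (1.34) and Tubb3 (1.21 ± 0.21), and 4 fell, Nefl by 1.84 and Ret by 1.40 at low levels. The summed smooth muscle level was 2880 to 3610 CPM in controls and 3670 to 3950 in HLHS, without overlap, the epicardial level 221 to 341 and 317 to 391, and the neural level 103 to 173 and 125 to 201. The smooth muscle rises numbered 2 without control 1, control 5 or any HLHS embryo, and the falls 2 without control 1 or HLHS 1 and 1 without HLHS 2. The neural rises numbered 1 without HLHS 2 and 3 without HLHS 3, the neural falls 2 without control 5, HLHS 2 or HLHS 3, and 1 epicardial gene rose without control 1 or HLHS 1.

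Among genes that passed in the sum and on neither side alone were Ntn4, a netrin of basement membranes (-0.46 ± 0.08, with -0.39 on the left and -0.50 on the right), and Enpp1, which makes pyrophosphate (0.62 ± 0.11, with 0.61 and 0.65). Osr1, a transcription factor of septation, rose by 0.69 ± 0.13, with 0.32 on the left and 1.03 on the right. Matn3 and Mael also passed, but at most at 0.813 and 0.51 CPM in any embryo.

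Among the controls, E17.5 against E14.5 passed for 5043 of 16823 genes (30.0%). Stage and litter were the same variable here as well, so this comparison cannot tell a change with stage from a difference between litters. Its error was the spread between littermates only, and its count came from another fit than that of the phenotype. The 2 counts are therefore not ranked. In what follows, stage stands for this difference between the control litters of E17.5 and E14.5. Because this comparison shares its controls with the HLHS comparison, single values are given side by side and no more. Itgb1bp2 rose with stage by 0.89 ± 0.06 and was lower in HLHS by 1.07. For Acsl1 the values were 0.96 with stage and -0.80 in HLHS, for Ckm 0.83 and -0.69, for Tnni3 0.62 and -0.50, and for Hmga2 -1.44 and 1.00. Other genes changed in HLHS without passing between the stages: Kcnd2 had -0.06 ± 0.11 with stage and -0.995 in HLHS, Dll4 0.01 and -0.59, Tgfb3 -0.15 and 0.61, Sin3a 0.03 and 0.36, and Ahrr 0.20 and -0.96. Some genes changed in the same direction in both comparisons. Plod2 rose by 0.25 ± 0.07 with stage and by 0.55 ± 0.06 in HLHS. For Xirp2 the values were 2.21 and 0.71, for Sost 0.58 and 1.66, for Dnajb9 0.31 and 0.35, and for Hey2 -0.25 and -0.30. These genes are examples, and genes of either kind were not counted.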

How the data were processed

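Total RNA of the ventricles of single mouse embryos was made into TruSeq libraries, per the labels' protocols. The authors deposited raw read counts per gene, in whole numbers. The submitters' processing notes name the build mm9, HTSeq 0.5.4p5 and TopHat2 2.0.9 along with Picard and edgeR 3.4.2. Strand, duplicates and annotation: not given in the sources used here. Overlapping, antisense and near-identical genes (globins, Hspa1a and Hspa1b, Ckmt1, tryptases, Xlr) may share reads. Symbols were found for 32919 of 37991 genes. Fold changes that the authors deposited were left aside.

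Counts of the 2 libraries of an embryo were added. Pairing of libraries and litters comes from the embryo and litter numbers in the labels, and embryos are the replicates. No pair of control embryos agreed within sampling noise (lowest chi-square per degree of freedom 14.4). The sums went into edgeR 4.0.16 under R 4.3.3: filterByExpr (at least 10 counts, total at least 15), TMM, and the quasi-likelihood test with litter and phenotype as terms and 4 residual degrees of freedom, with Benjamini-Hochberg adjustment over all genes tested and a threshold of 0.05. Left minus right was tested over 16 libraries with the embryo as a block and side, side by litter and side by phenotype as terms. Litter-by-side differences used log2 CPM with a prior count of 2. CPM uses TMM library sizes, except for the check of Xist and Ddx3y over the summed counts. Fits were tested on simulated data.

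Lists and named genes were chosen with earlier results of these data known. Named were the 12 largest rises and falls alike on both sides whose average log2 CPM reached 2 (unnamed gene models left out), up to 4 called members of each list by p, up to 5 genes each called in the sum but on neither side or differing between sides, and Sap130, Hand1, Hand2, Nppa, Nppb, Myh6, Myh7, Mki67, Cdkn1a and Xist. A few genes that the rule takes are not reported here. Other list members given were chosen after their values were seen. Some genes, such as Hey2, Sost, Plod2, Kcnj8, Nppa and Xirp2, are on more than 1 list. Kcnj11, Mrpl33, Cdkn2d, Muc16, Hbb-b1, Hbb-b2 and Ahsp were not analysed here. Alternatives used DESeq2 1.42.0 and limma 3.58.1.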

Additional observations from a re-analysis of the deposited data

Results flagged for a closer look

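For 13 named genes the HLHS effect differed between the ventricles by the test of the difference itself, given here as left minus right on the log2 scale. Cnn1, Bnip3, Ckmt2, Prrx2 and Tppp were taken by the naming rule for genes differing between sides, so this number was partly fixed by that choice. The difference was 2.38 for Stmn4, 1.93 for Xirp2, 1.26 for Hba-x, 1.22 for Cnn1, 1.20 for Krt18, 1.02 for Hmox1, 0.96 for Prrx2, 0.76 for Hbb-y and 0.69 for Bnip3, all more positive on the left. It was -1.15 for Ckmt2, -1.01 for Tppp, -0.66 for Myh6 and -0.46 for Perm1, all lower on the left. Hba-x and Hbb-y are embryonic globins, and the summed erythroid level reached 1140 CPM in HLHS against at most 872 CPM in controls; its part in the other values was not tested.

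In 8 of 163 named genes 1 of the 5 control embryos stood apart from the rest. In 6 of them it was control 1, the only control of E13.5, with 155 CPM of Irx4, 260 CPM of Cited1, 173 CPM of Nppa, 99.0 CPM of Igf2bp2, 2.76 CPM of Nrg1 and 34.6 CPM of Krt19. Control 2 stood apart for Crispld2 at 6.78 CPM and for Thbs1 at 88.5 CPM. Litter was a term of the fit, so the level of control 1 was compared with HLHS 1 alone.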

How the results depend on the processing

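No named gene reversed its direction under an alternative where it passed in the main comparison or in that alternative. A change of sign in a gene that passed in neither was not counted. The count of 2401 genes stayed within 1.5 times under other size factors, tools, filters, equal weights for the ventricles, 16 libraries in 1 fit, no globin genes and an Xist covariate (2346 to 3481). Without the replicate block, that is with litter left out, it was 0, and it was 1 for the left (1314 at an unadjusted p under 0.05) and 0 for the right ventricle alone (1321). Leaving out litters gave 1246 (E13.5), 974 (E14.5) and 1532 (E17.5), and single embryos 865 to 2135, with fewer degrees of freedom. The 1334 genes alike on both sides became 401 where each side alone had to pass, and leaving out an embryo gave 488 to 1167, of which 393 to 1045 were among the 1334. The left minus right count of 171 was 3 without side by litter terms, 356 with no count filter and 60 to 271 with 1 embryo left out. With 1 embryo left out the left count ran from 845 to 2309, the right from 195 to 1518 and the stage count of 5043 from 3488 to 4531. With 1 HLHS embryo per litter, the spread between HLHS littermates was not measured.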
